A study of Mus musculus with 10 samples.

Results

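Regulators of G protein signalling (RGS proteins) shorten the signal of G protein-coupled receptors, and 10 genes of this family and its partners were followed by symbol among the 32531 gene symbols of each count file: Rgs2, Rgs4, Rgs7, Rgs7bp, Rgs8, Rgs9, Rgs10, Rgs12, Rgs14 and Rgs16. All 10 had reads in every library and passed the low-count filter of each main comparison. The RNA came from the whole striatum of adult Drd2-TRAP mice (line CP101, Drd2-EGFP/Rpl10a), in which ribosomes of cells that use the D2 dopamine receptor gene carry a green fluorescent tag. Tagged polysomes were immunopurified (IP) after intravenous self-administration of saline or of cocaine in short sessions, and the comparison asks how ribosome-bound RNA of these cells differs after cocaine intake. There were 3 saline IP libraries (numbers 1, 2 and 4), 5 cocaine IP libraries (numbers 1 to 5), 1 saline input library of total RNA and 1 cocaine unbound library of the RNA that the beads left behind. All 4 groups carry the transgene, and the reference fraction differs between the treatments. The labels name medium spiny neurons as the cell type, but the Drd2 gene is also used by cholinergic interneurons, and the labels do not say whether a library holds 1 animal or several. P-values therefore measure the spread between these samples, which may be technical.

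An RGS protein binds an active G protein alpha subunit and speeds the hydrolysis of its GTP, which ends signalling to adenylyl cyclase, phospholipase C or potassium channels. The R4 subfamily (Rgs2, Rgs4, Rgs8 and Rgs16) consists of small proteins with little beyond the RGS domain. The R7 subfamily (Rgs7 and Rgs9 here, with Rgs6 and Rgs11 outside the 10 genes) forms stable complexes with the G protein beta subunit Gnb5, and Rgs7bp is the membrane anchor of these complexes. The R12 subfamily holds the small Rgs10 and the larger Rgs12 and Rgs14, which also carry a GoLoco motif that binds inactive alpha subunits. In the striatum the family is known for Rgs9, whose long brain isoform acts on dopamine and opioid receptor signalling in medium spiny neurons of both output pathways.

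The IP libraries held 22975667 to 31631137 reads counted to genes, the input 18408782 and the unbound library 20882691, so that 3 reads equal 0.0948 to 0.131 CPM (counts scaled to the same number of gene reads per library) in an IP library. The labelled cells showed in their markers: all 10 indirect-pathway genes, among them Drd2, Adora2a and Penk, lay 2-fold or more above the reference of the same treatment in each IP library. This holds after the TMM scaling described below. Direct-pathway genes such as Drd1 and Pdyn were lower by the same limit in 9 of 9 and 8 of 9 cases, Tac1 being the exception against unbound RNA, and all 10 astrocyte and all 10 oligodendrocyte genes were lower in both comparisons. Some of the astrocyte genes averaged under 1 CPM in IP RNA and passed the low-count filter only through the references. Cholinergic interneuron genes summed to 27.7 to 45.3 CPM in saline IP, 27.97 to 63.1 CPM in cocaine IP, 95.7 CPM in input RNA and 63.1 CPM in unbound RNA. Of these genes Gbx2 was at 0 in every IP library and in both references. The 10 RGS genes together took 4552 to 5219 CPM in saline IP, 4356 to 5084 CPM in cocaine IP, 3333 CPM in input RNA and 3813 CPM in unbound RNA.

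Of the 10 genes, Rgs2, Rgs4 and Rgs9 carry the contrasts described below: Rgs2 was the member 2-fold higher in IP RNA against both references, Rgs4 had the highest level, and Rgs9 was lower in IP RNA against both. Their promoter windows, the 250 bases before the RefSeq start site on build GRCm38.p6, read 5′ to 3′ on the gene's strand, are shown so that these letters can be set beside the values. Capitals mark matches, on either strand, to the motifs TGACGTCA (the full cAMP response element), TGACG (its core, which also lies within TGACGTCA), TGANTCA (the AP-1 motif), TATAAA (the core promoter box bound by TBP) and GCGNGGGCG (the Egr motif). The windows are at chr1:144004150-144004399, minus strand, for Rgs2, at chr1:169747643-169747892, minus strand, for Rgs4 and at chr11:109298182-109298431, minus strand, for Rgs9.
Rgs2: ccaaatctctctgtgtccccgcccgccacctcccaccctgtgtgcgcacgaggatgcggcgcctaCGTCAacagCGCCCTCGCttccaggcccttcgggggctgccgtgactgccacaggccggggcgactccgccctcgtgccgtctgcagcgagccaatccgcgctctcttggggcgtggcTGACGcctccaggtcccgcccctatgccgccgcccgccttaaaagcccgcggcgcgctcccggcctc
Rgs4: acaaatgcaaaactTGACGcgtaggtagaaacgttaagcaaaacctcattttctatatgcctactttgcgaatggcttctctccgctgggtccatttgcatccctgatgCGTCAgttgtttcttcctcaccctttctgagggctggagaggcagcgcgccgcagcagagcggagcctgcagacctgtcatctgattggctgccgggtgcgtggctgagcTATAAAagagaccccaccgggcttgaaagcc
Rgs9: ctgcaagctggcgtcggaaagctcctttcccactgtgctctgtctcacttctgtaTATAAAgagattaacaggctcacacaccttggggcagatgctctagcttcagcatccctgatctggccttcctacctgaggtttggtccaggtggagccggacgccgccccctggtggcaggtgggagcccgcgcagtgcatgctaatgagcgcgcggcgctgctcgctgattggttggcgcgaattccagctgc

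The Rgs2 window held TGACG at -185 (on the opposite strand) and at -67 and the Egr motif at -176 (on the opposite strand), counted from the start site to the first base of the match. The Rgs4 window held TGACG at -236 and at -141 (on the opposite strand) and TATAAA at -31. The Rgs9 window held TATAAA at -195 and none of the other 4 motifs. Among all 32851 RefSeq windows of this length, TGACG occurred in 17.8%, TATAAA in 12.4%, TGANTCA in 6.75%, GCGNGGGCG in 4.70% and TGACGTCA in 1.55%. Guanine and cytosine made up 72.4%, 53.6% and 59.6% of the 3 windows, against a median of 52.4% over all windows. These are matches of letters, and the RefSeq start of Rgs9 lies just upstream of the gene model in GENCODE M21. Of the 10 genes 9 had a window, with Rgs14 without one.

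Of the 10 genes, 5 lie on chromosome 1 of GRCm38, the assembly also called mm10: Rgs2 (143999338 to 144004161, minus strand), Rgs8 (153653025 to 153700323, plus strand), Rgs16 (153740349 to 153745468, plus strand), Rgs4 (169741477 to 169747642, minus strand) and Rgs7 (175059087 to 175492500, minus strand). Rgs9 is on chromosome 11 (109225355 to 109298129, minus strand), Rgs10 on chromosome 7 (128373621 to 128418758, minus strand) and Rgs12 on chromosome 5 (34949445 to 35039644, plus strand). Chromosome 13 holds Rgs7bp (104945904 to 105054930, minus strand) and Rgs14 (55369732 to 55384687, plus strand). All are protein-coding genes in GENCODE M21, and values cover whole gene models without telling isoforms apart. Rgs8, Rgs12 and Rgs16 share 70, 467 and 236 exon bases with antisense models (Gm29529, Gm43791 and Gm28513), and since the strand setting of the counting is not given in the sources used here, their counts are uncertain to that extent.

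Levels were compared between genes per length, as CPM per kilobase of annotated exon. Rgs4, which acts on Gi/o and Gq alpha subunits, stood highest in saline IP at 419 ± 58.4 CPM per kilobase (SD, n = 3), above every other member in each library. Next came Rgs7bp at 196 ± 30.0, Rgs2 at 196 ± 25.2 and Rgs10 at 180.0 ± 23.2 CPM per kilobase (SD, n = 3 each), whose ranges overlapped. Rgs8 followed at 67.5 ± 10.4, Rgs9 at 44.3 ± 1.08, Rgs7 at 18.9 ± 1.23 and Rgs14 at 8.21 ± 1.56 CPM per kilobase (SD, n = 3 each), each range clear of its neighbours. Rgs16 at 1.87 ± 0.47 and Rgs12 at 1.36 ± 0.66 CPM per kilobase (SD, n = 3 each) were lowest and overlapped. Among cocaine IP libraries the order differed only within the overlapping set of Rgs10 (190.3 ± 39.1), Rgs7bp (189 ± 27.1) and Rgs2 (178 ± 19.2 CPM per kilobase, SD, n = 5 each), while Rgs4 was at 411 ± 47.6 (SD, n = 5). In the input Rgs9 stood at 83.5 and Rgs8 at 40.9 CPM per kilobase, and in the unbound library at 83.8 and 57.8, so their order in both references was the opposite of that in all 8 IP libraries.

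**Figure D1:**
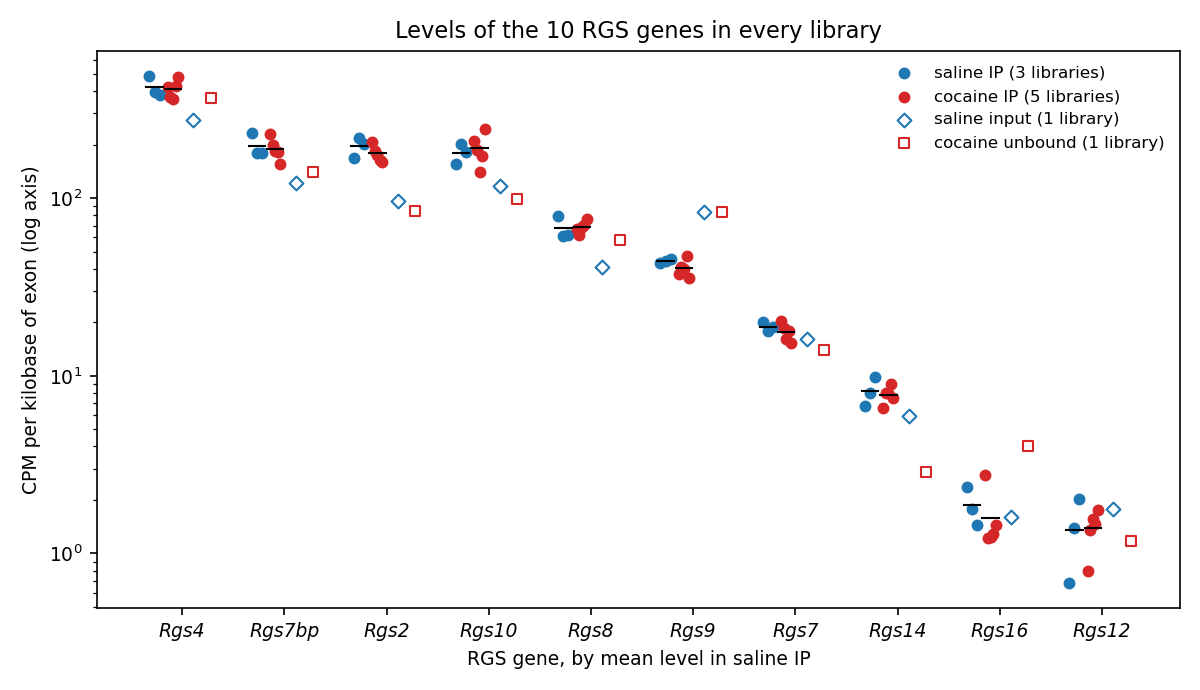
Level of the 10 RGS genes in every library, in CPM per kilobase of exon on a log axis, ordered by the saline IP mean (black bars are group means; filled circles are IP libraries, open symbols the single input and unbound libraries). Rgs4 is highest at 419 CPM per kilobase in saline IP, and the open symbols of Rgs9 (83.5 and 83.8 CPM per kilobase) lie above all its IP libraries.

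Rgs9 was lower in the D2-cell ribosome RNA than in striatal RNA, while 7 other members (all but Rgs12 and Rgs16) were higher in both comparisons. In saline IP 1, 2 and 4 it had 276, 283 and 290.1 CPM, and in the input 533 CPM. In cocaine IP 1 to 5 it had 239, 262, 255, 303 and 227 CPM, and in the unbound library 536 CPM. All 8 IP values lay well below both references, and the 3 saline values were close together (SD 6.92 CPM). IP libraries were set against the reference of the same treatment as log2 ratios on TMM-scaled CPM plus a prior of 1, a scale that understates the change of low genes. Against input the mean log2 ratio of Rgs9 was -0.68 ± 0.07 (SD, n = 3), or 1.60-fold lower as a ratio of means. Against unbound RNA it was -0.87 ± 0.18 (SD, n = 5), or 1.82-fold lower. Of 12902 and 12643 genes measured, 19.3% and 14.8% had a lower ratio. Each reference is 1 library, so these ratios have no replicate of the reference and no test. The input and unbound libraries were both in lane 1 and every IP library in lane 4, 6 or 7, so in all IP ratios lane and fraction cannot be told apart.

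For comparison, all 12 genes used as markers of striatal neurons in general had mean log2 ratios above 0 in both comparisons, the lowest being 0.70 against input and 0.40 against unbound RNA. The 9 direct-pathway genes had medians of -2.64 and -2.40. The Rgs9 ratios lay between those values. In bulk RNA, fewer cells of a type and less RNA per cell cannot be told apart, and neither can a lower level in the tagged cells from a smaller ribosome-bound share of the transcript.

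The contrast of Rgs9 with other members can be read within a library, free of scaling between libraries. Per 100 Rgs4 reads, the IP libraries held 15.3 to 24.8 Rgs9 reads, input RNA 62.3 and unbound RNA 47.5. On the TMM scale Rgs4 itself was 1.78-fold above input and 1.29-fold above unbound RNA as ratios of means. The contrast thus holds the higher Rgs4 as well as the lower Rgs9. Rgs8 reads per 100 Rgs4 reads were 48.1 to 59.5 in IP RNA, 46.0 in input RNA and 49.4 in unbound RNA, so the unbound value lay within the IP range and the input just below it. Rgs2 reads per 100 Rgs4 reads were 39.2 to 64.6 in IP RNA, 40.6 in input RNA and 27.3 in unbound RNA. As a share of the summed level per kilobase of the 10 genes, Rgs9 made up 3.02% to 4.34% of IP RNA, 10.98% of input RNA and 9.82% of unbound RNA.

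**Figure D2:**
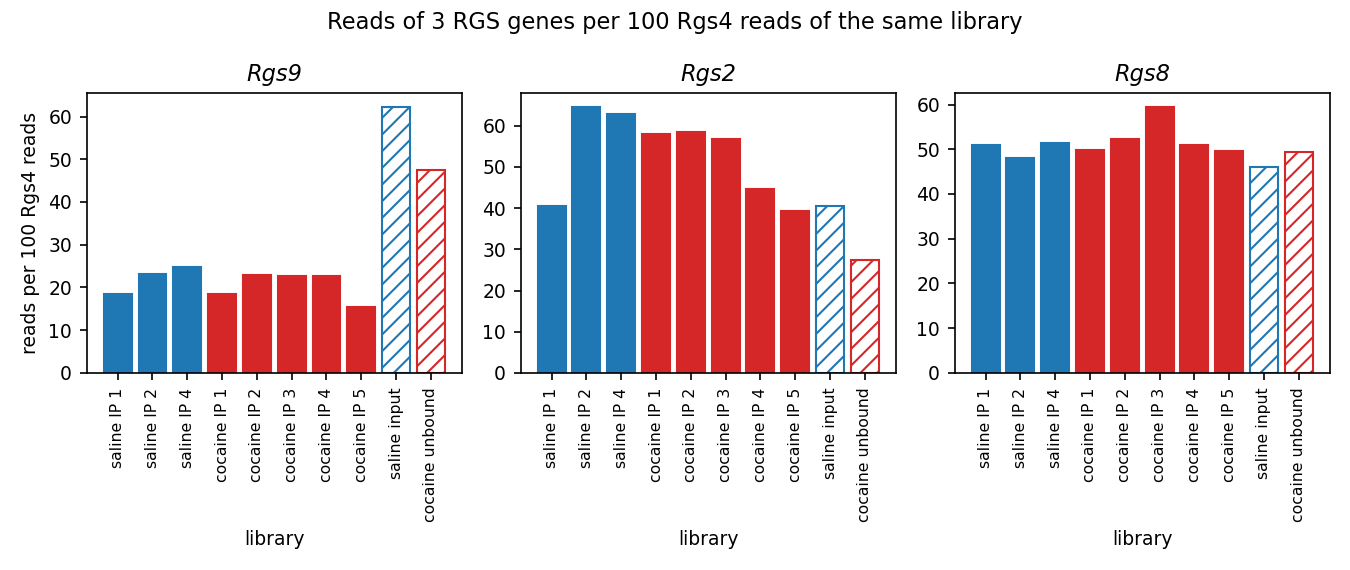
Reads of Rgs9, Rgs2 and Rgs8 per 100 Rgs4 reads of the same library, with 1 bar per library, from 0 (IP libraries filled, input and unbound libraries open and hatched). Rgs9 stands at 15.3 to 24.8 in IP RNA and at 62.3 and 47.5 in the references, while the Rgs8 bars are of like height throughout.

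Rgs2, an R4 member known for its preference for Gq, went the other way. It had 609, 787 and 735 CPM in saline IP 1, 2 and 4 and 348 CPM in the input. In cocaine IP 1 to 5 it had 753, 670.0, 636, 593 and 579.9 CPM, with 308 CPM in the unbound library. Every IP library lay clear above its reference. The mean log2 ratios were 1.25 ± 0.22 (SD, n = 3) and 1.25 ± 0.15 (SD, n = 5), larger than those of 98.8% and 95.9% of genes measured. They were near the medians of the 12 markers of striatal neurons in general, 1.09 and 1.13. The 10 indirect-pathway genes had medians of 2.21 and 2.23.

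A call of higher or lower needed 2-fold in all IP libraries of the treatment. Against input Rgs2 alone of the 10 RGS genes was called higher, against 1.64% of all genes, and no member was called lower, against 11.6%. Against unbound RNA Rgs2 and Rgs14 were called higher, against 3.78% of genes, and none lower, against 9.74%. The call of Rgs2 against input rests on saline IP 1, whose log2 ratio of 1.002 was just past the limit, and it ended under 4 other settings (the prior at 5 CPM, library size alone, DESeq2 size factors, TMM on filtered genes). Against unbound RNA the call of Rgs2 also ended with library size alone and with TMM on filtered genes.

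Without a fold limit, 8 of the 10 genes were above the input in all 3 saline IP libraries, against 44.2% of all genes, and 7 were above the unbound library in all 5 cocaine IP libraries, against 44.3%. Rgs9 alone was below in every library against input (32.8% of genes), and Rgs9 and Rgs16 were below in every library against unbound RNA (29.9%). The median ratio of the 10 genes was 0.74 against input and 0.48 against unbound RNA, beside medians of 0.13 and 0.17 over all genes. The 12 markers of striatal neurons in general had higher medians than the 10 genes, 1.09 and 1.13. With library size in place of TMM the medians of all genes became -0.09 and -0.01. Then 7 and 6 members lay above the reference in every library. The share of all genes that did so was not counted under that scaling, so these 2 counts have no background. The sign of Rgs9 was negative under every setting run. At a limit of 1.5-fold in every library, 5 members (Rgs2, Rgs4, Rgs7bp, Rgs8 and Rgs10) were called higher against input, beside 11.6% of genes, and Rgs9 lower, beside 16.9%. Against unbound RNA the same limit called 3 members higher (Rgs2, Rgs10 and Rgs14), beside 13.8% of genes, and Rgs9 lower, beside 14.8%.

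**Figure D3:**
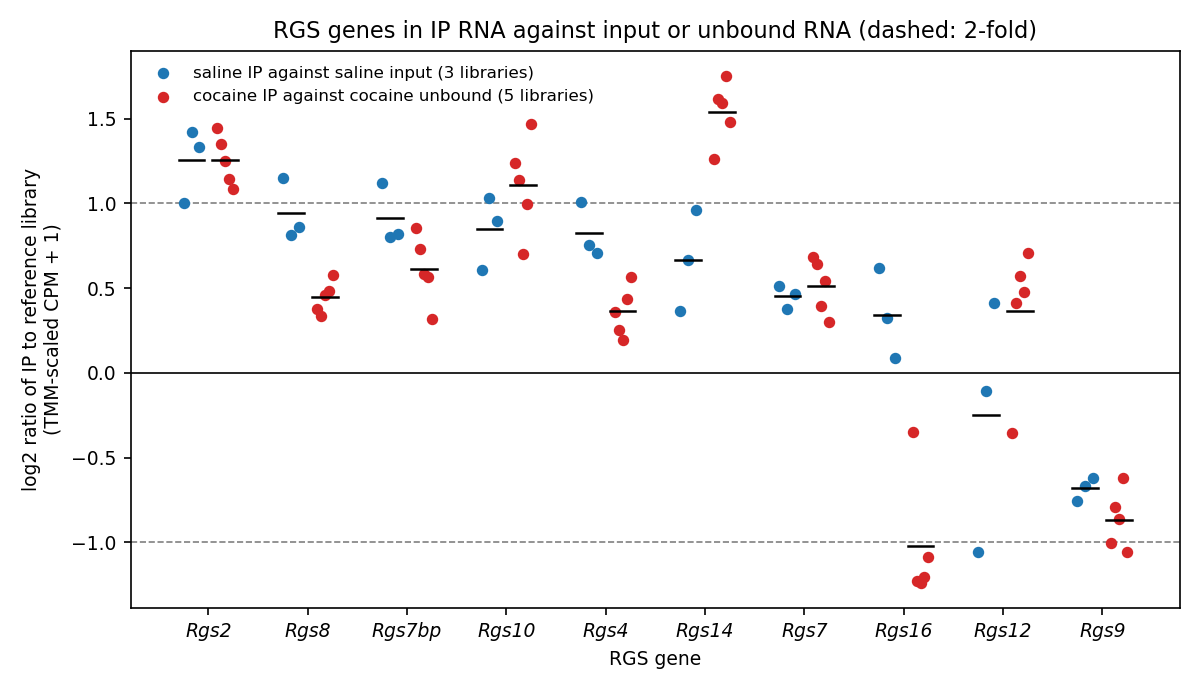
Log2 ratio of each IP library to its reference (TMM-scaled CPM plus 1) for the 10 RGS genes, with saline IP against input and cocaine IP against unbound RNA side by side (points are libraries, black bars means, dashed lines the 2-fold limits). Rgs2 averages 1.25 in both comparisons, Rgs9 lies below 0 in all 8 libraries, and Rgs16 lies on opposite sides of 0.

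Rgs4 and Rgs8, the other abundant R4 genes, were higher in IP RNA by less than 2-fold. Rgs4 had 1505, 1219 and 1171 CPM in saline IP 1, 2 and 4 against 857 CPM in the input. In cocaine IP 1 to 5 it had 1299, 1143, 1118, 1330.2 and 1478 CPM against 1128 CPM in the unbound library. Before scaling, cocaine IP 3 fell just under its reference, and on the TMM scale all 5 lay above it. The mean log2 ratios were 0.82 ± 0.16 (SD, n = 3) and 0.36 ± 0.15 (SD, n = 5). Rgs8, known from striatum and cerebellar Purkinje cells and active on Gi/o, had 766, 586 and 601 CPM in saline IP, 648, 597, 665, 678 and 735 CPM in cocaine IP, 394 CPM in the input and 558 CPM in the unbound library. The mean log2 ratios of Rgs8 were 0.94 ± 0.18 (SD, n = 3) and 0.45 ± 0.09 (SD, n = 5), with every IP library above its reference.

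Rgs16, the remaining R4 gene, was near the lower end of what was measured. It had 5.57, 4.19 and 3.40 CPM in saline IP 1, 2 and 4 and 3.75 CPM in the input, where 69 reads give a 95% Poisson interval of 2.92 to 4.74 CPM. In cocaine IP 1 to 5 it had 6.43, 2.87, 2.91, 3.01 and 3.39 CPM and in the unbound library 9.43 CPM (197 reads, interval 8.16 to 10.8 CPM). Cocaine IP 1 was high, and the IP values of both treatments overlapped while the references did not. Against input the mean log2 ratio was 0.34 ± 0.27 (SD, n = 3), and against unbound RNA -1.02 ± 0.38 (SD, n = 5). The sources used here mention no molecular identifiers, so these intervals, and the 3-read floor above, cover counting error only.

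Of the R7 genes and partners, Rgs7, Rgs7bp and Gnb5 lay above the references, while the R7 genes Rgs6 and Rgs11, outside the 10 members and of low level, lay below them as Rgs9 did. Rgs6, named after its values were seen, was at a mean log2 ratio of -1.04 ± 0.39 (SD, n = 3) to input and -1.31 ± 0.42 (SD, n = 5) to unbound RNA, below 0 in all 8 libraries but not past 2-fold in every one. Rgs7, the close relative of Rgs9, had 122, 107 and 113 CPM in saline IP, 122, 112, 96.5, 107 and 92.1 CPM in cocaine IP, 97.2 CPM in the input and 84.4 CPM in the unbound library. Its mean log2 ratios were 0.45 ± 0.07 (SD, n = 3) and 0.51 ± 0.16 (SD, n = 5), and all 8 were positive. Rgs7bp, which anchors R7 complexes at the plasma membrane, had 1634, 1264 and 1269 CPM in saline IP and 1621, 1405, 1296, 1285 and 1096 CPM in cocaine IP. The input had 860.3 CPM and the unbound library 997 CPM, below every IP library of the same treatment. Its mean log2 ratios were 0.91 ± 0.18 (SD, n = 3) and 0.61 ± 0.20 (SD, n = 5). Gnb5, the beta subunit that R7 proteins need for their stability, passed 2-fold in all 8 IP libraries on the TMM scale, with mean log2 ratios of 1.15 ± 0.07 (SD, n = 3) and 1.27 ± 0.09 (SD, n = 5). Of all genes, 1.64% were called higher against input and 3.78% against unbound RNA. Before scaling, Gnb5 was short of 2-fold in its lowest libraries, at 532 CPM in saline IP and 549 CPM in cocaine IP. Input RNA had 304 CPM and unbound RNA 280 CPM. Per 100 Rgs9 reads, the IP libraries held 424 to 679 Rgs7bp reads, input RNA 161 and unbound RNA 186.

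Rgs10, the small R12 gene, is known from microglia as well as neurons. It had 266, 346 and 312 CPM in saline IP 1, 2 and 4 against 199.7 CPM in the input, and 361, 318, 239, 295 and 416 CPM in cocaine IP 1 to 5 against 169.6 CPM in the unbound library. Every IP library lay above its reference, and cocaine IP 3 and 5 marked the extremes of the 8. The mean log2 ratios were 0.85 ± 0.22 (SD, n = 3) and 1.11 ± 0.29 (SD, n = 5). The 10 microglial marker genes, none at 0 in every IP library, summed to 4.77 to 10.1 CPM in saline IP and 3.91 to 7.54 CPM in cocaine IP, against 82.7 CPM in the input and 62.9 CPM in the unbound library. Which cells the Rgs10 reads came from was not tested.

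Rgs14, a Ras-binding scaffold known from hippocampal area CA2, had 28.5, 34.1 and 41.7 CPM in saline IP, beside 25.1 CPM in input RNA. It had 27.8, 33.8, 33.9, 38.2 and 32.0 CPM in cocaine IP and 12.3 CPM in the unbound library. The IP levels of both treatments overlapped, and it was the references that differed. Its mean log2 ratio to input was 0.66 ± 0.30 (SD, n = 3) and that to unbound RNA 1.54 ± 0.18 (SD, n = 5), the highest of the 10 genes in that comparison. Rgs12, a large protein with a PDZ domain, had 5.83, 11.8 and 17.1 CPM in saline IP, beside 15.1 CPM in input RNA. In cocaine IP it had 6.78, 11.5, 13.3, 12.5 and 14.97 CPM and in the unbound library 9.96 CPM. It varied more between IP libraries than any other member (2.93-fold from lowest to highest), and its mean log2 ratios of -0.25 ± 0.74 (SD, n = 3) and 0.36 ± 0.42 (SD, n = 5) were smaller than their SD.

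Other genes of the family were counted in the same way. Of 18 other RGS or RGS-domain genes in the files, 13 were measured, none was called higher in either comparison, and the same 3, Rgs3, Rgs5 and Rgs11, were called lower in both. Rgs3 and Rgs5 averaged under 1 CPM in both IP groups and passed the low-count filter only through the references. Their calls of lower were thus largely set by the filter. Rgs3 was at 0.36 CPM in saline IP and 0.66 CPM in cocaine IP, beside 3.97 CPM in input RNA and 5.32 CPM in unbound RNA. Over all genes, 1.64% were called higher and 11.6% lower against input, and 3.78% and 9.74% against unbound RNA, and the difference between these 13 genes and the members was not tested. Rgs5, known as a pericyte gene, lay at a mean log2 ratio to input of -2.73 ± 0.37 (SD, n = 3) and to unbound RNA of -2.28 ± 0.37 (SD, n = 5). Its level was 0.59 ± 0.44 CPM (SD, n = 3) after saline, beside 10.6 CPM in input RNA. The endothelial and mural marker genes summed to 1.36 to 2.75 CPM after saline IP, beside 27.2 CPM in input RNA. Rgs11, another R7 relative, best known from the retina, was at -1.88 ± 0.47 (SD, n = 3) to input and -1.30 ± 0.16 (SD, n = 5) to unbound RNA, and Rgs3 at -1.71 ± 0.05 (SD, n = 3) and -1.81 ± 0.27 (SD, n = 5). The medians of the 13 genes were -0.12 and 0.10, beside 0.74 and 0.48 for the 10 members.

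Genes up and down the pathway lay on both sides of the references, and their counts stand beside the same shares of all genes (1.64% higher and 11.6% lower against input, 3.78% and 9.74% against unbound RNA). Of 11 G protein alpha subunit genes measured, none was called higher, 4 were lower against input, led by Gna12, Gnai1 and Gna13, and 2 against unbound RNA, Gna12 and Gna13. Gna12 had mean log2 ratios of -2.54 ± 0.08 (SD, n = 3) and -2.08 ± 0.21 (SD, n = 5). Of 14 Gi- and Gq-coupled receptor genes, those called higher included Drd2 in both comparisons and Oprd1, the delta opioid receptor gene, against input only (1.40 ± 0.18, SD, n = 3), while the muscarinic receptor gene Chrm4 was lower in both. Among 12 effector genes, Adcy2, Kcnj3 and Kcnj6 were lower in both comparisons, and against unbound RNA Plcb4 was also lower and Adcy3 higher. Kcnj6 averaged under 1 CPM in both IP groups and passed the low-count filter only through the references. Of 7 receptor kinase and arrestin genes 1, Adrbk2, was lower in both, and of 3 GoLoco genes beyond Rgs12 and Rgs14, Rap1gap was higher in both. Before scaling, Oprd1 and Rap1gap were short of 2-fold in their lowest saline IP library (44.3 CPM beside 22.3 CPM in input RNA, and 145 beside 75.8). The tag is driven by the Drd2 gene, and Chrm4 was also on the direct-pathway list.

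Cocaine against saline gave no RGS gene past the threshold. By edgeR's quasi-likelihood test over 13800 genes, 0 of the 10 members passed an adjusted p of 0.05, and so did 0 of all genes (0%). Unadjusted, 0 of 10 members and 295 of all genes (2.14%) had a p under 0.05, and DESeq2 and limma-voom also called 0 genes after adjustment. For all 10 members the saline and cocaine IP values overlapped, so 0 of 10 had separate groups, near the 2.34% of all genes that did. None moved in the same direction in all 3 libraries of matching number, a count that was not made over all genes. The members' median log2 fold change was -0.05, beside 0.01 over all genes, with 7 fitted values below 0 and 3 above. All had an adjusted p of 0.9998.

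The intervals show what size of change these libraries leave possible. Rgs9 averaged 283 ± 6.92 CPM after saline (SD, n = 3) and 257 ± 29.3 CPM after cocaine (SD, n = 5), a log2 fold change of -0.13 (95% interval -0.38 to 0.12). Rgs4 averaged 1298 ± 181 CPM (SD, n = 3) and 1274 ± 147 CPM (SD, n = 5), a log2 fold change of -0.02 (-0.28 to 0.25). Both intervals stay within 1.5-fold in either direction in this fit, which leaves lane out. Rgs2 went from 710.5 ± 91.6 CPM (SD, n = 3) to 646 ± 69.5 CPM (SD, n = 5), a log2 fold change of -0.13 (-0.41 to 0.15). Rgs8 (0.04), Rgs7bp (-0.04), Rgs7 (-0.09), Rgs14 (-0.06) and Rgs10 (0.08) had fitted log2 fold changes of like size. The widest intervals were those of the lowest genes, Rgs12 at 0.03 (-0.67 to 0.74) and Rgs16 at -0.23 (-0.85 to 0.40). In this fit all 10 intervals lay within 1 log2 unit of 0. With lane as a covariate the estimates were less certain, for abundant genes as well. Rgs9 was then at -0.23 and Rgs4 at 0.05, each with an SE of 0.21, beside 0.12 in the main fit. The limit of 1.5-fold thus does not hold for Rgs9 there. Rgs14 was at -0.45 (SE 0.23), Rgs12 at -0.91 (SE 0.43) and Rgs16 at 0.43 (SE 0.46). Changes of 2-fold were not outside the reach of Rgs12 and Rgs16 there. Without cocaine IP 1, Rgs16 was at -0.52 (SE 0.22), and without saline IP 1 at -0.05. The main fit also leaves library number out. With number as a block, on the libraries numbered 1, 2 and 4, every member had a smaller SE than in the main fit. That of Rgs9 was 0.083 beside 0.115, and that of Rgs12 0.153 beside 0.322.

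**Figure D4:**
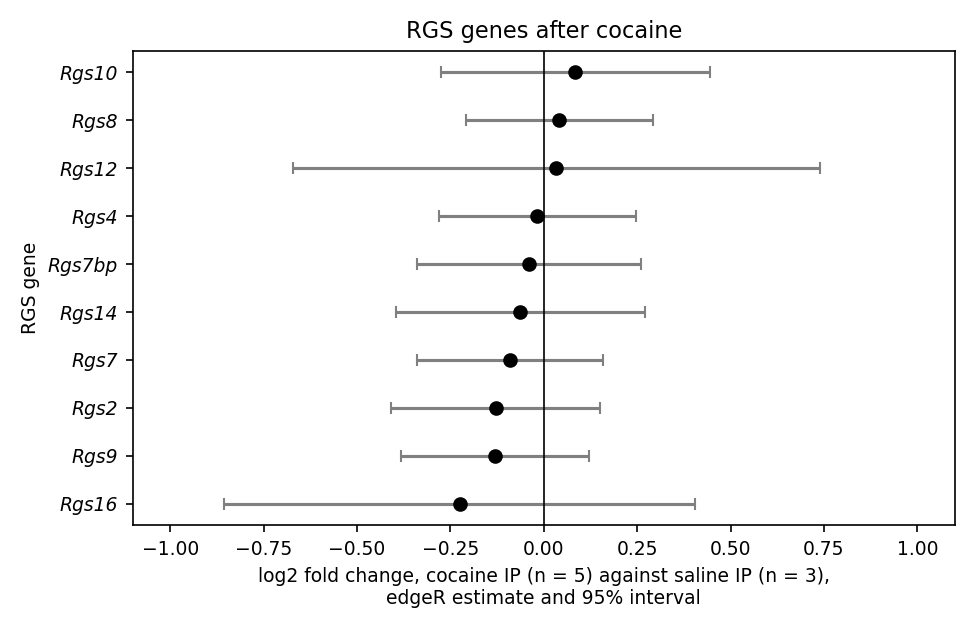
Log2 fold change of the 10 RGS genes in cocaine IP (n = 5) against saline IP (n = 3), as the edgeR estimate (points) with its 95% interval (bars) on a log2 axis. All 10 intervals include 0, and the widest are those of Rgs12 and Rgs16.

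Outside the 10 genes, named after their values were seen, Rgs17 was the 1 of 14 other RGS genes tested with an unadjusted p under 0.05 for cocaine, beside 2.14% of all genes. It was at 175 ± 42.3 CPM after saline (SD, n = 3) and 218 ± 12.7 CPM after cocaine (SD, n = 5) (log2 fold change 0.33, edgeR adjusted p = 0.9998). The ranges of Rgs17 overlapped, at 146 to 224 CPM after saline and 198 to 231 CPM after cocaine. Gnai1 among the alpha subunits had a log2 fold change of 0.38, also with an adjusted p of 0.9998 by edgeR. The lists of R7 partners, GoLoco genes, kinases and arrestins, effectors and receptors held 0 genes with an unadjusted p under 0.05, again beside 2.14% of all genes.

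Sequencing lane, taken from the sample descriptions, overlaps treatment in part. Saline IP 1 and 2 were in lane 7, saline IP 4 and cocaine IP 1 and 2 in lane 6, and cocaine IP 3, 4 and 5 in lane 4. Within lane 6, the only lane with both treatments (1 saline and 2 cocaine libraries), log2 fold changes for cocaine ran from -0.91 for Rgs12 to 0.42 for Rgs16, and none passed the threshold in edgeR. That fit takes its spread from the 2 cocaine libraries alone, so the lack of calls says little. The single saline library there, saline IP 4, was the highest of all 8 for Rgs12, at 17.1 CPM. Among cocaine libraries, lane 4 against lane 6 gave 0 of 10 members and 0 of 13746 genes (0%) past an adjusted p of 0.05 by edgeR, with 5.41% of genes at an unadjusted p under 0.05 and 5 genes called by DESeq2. The lanes did not overlap for 5 members, against 22.2% of all genes: Rgs2, Rgs7 and Rgs7bp were lower in lane 4, and Rgs8 and Rgs12 higher. The largest of these shifts was 0.56 ± 0.25 (SE) for Rgs12 and that of Rgs7bp was -0.30 ± 0.14 (SE) on the log2 scale. Leaving out either lane 6 library leaves 1 in that lane, which is assumed to vary like those of lane 4. Without cocaine IP 1 the Rgs12 shift was 0.21 (edgeR adjusted p = 0.961), and without cocaine IP 2 Rgs12 passed as 1 of 407 genes (log2 fold change 1.04, edgeR adjusted p = 0.0468; 0.862 or more for all members with no library left out). The part of lane in the treatment comparison was not tested beyond these values.

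Across all 10 libraries, the genes whose pattern came closest to that of Rgs9, by the root mean square difference of centred log2(CPM + 1) among 9992 genes, were Cenpb (0.10), Cdc7 (0.10) and Fam184b (0.10). Fam184b had 12.6 ± 0.77 CPM after saline IP (SD, n = 3) beside 26.5 CPM in input RNA. Closest to Rgs4 were Ssrp1 (0.05), Sdha (0.07) and Eno2 (0.07), the last a neuronal enolase gene with 1149 ± 195 CPM after saline IP (SD, n = 3) beside 748 CPM in input RNA. Closest to Rgs2 were Eif1 (0.09), Dtnbp1 (0.10) and Trappc2l (0.10). Among the members with a mean of 5 CPM or more, Rgs8 was nearest to Rgs4 (0.09), Rgs10 to Rgs2 (0.25) and Rgs7 to Rgs9 (0.53). Rgs9 thus had no member nearly as close as Rgs8 was to Rgs4. The distances share libraries and depth and are descriptions only.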

How the data were processed

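The deposited files hold raw read counts by gene symbol. Per the submitters' processing notes, the authors used STAR 2.0.0e and HTSeq on mm10. Not given in the sources used here are HTSeq's version, the annotation and the strand setting. HTSeq's special counters, which name no gene, came to 44.6% to 56.5% of all entries in IP RNA, 53.7% in input RNA and 51.6% in unbound RNA, and stayed out of library sizes and tests. Groups and lanes come from the sample descriptions. Within the saline IP and the cocaine IP group, no library was a copy of another (lowest chi-square per degree of freedom 21.5 over 13 pairs).

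The members and gene lists were chosen with earlier results of these data known. All 10 members are named. From other lists the text names genes past the threshold or, for IP ratios, up to 3 per list and direction (ranked by the least changed IP library), plus 6 marker genes (Drd2, Adora2a, Penk, Drd1, Pdyn, Tac1) and the 3 genes most like Rgs9, Rgs4 and Rgs2 (mean CPM at least 5). A gene that the rule would name is not reported here.

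IP ratios used TMM-scaled CPM (on all genes) plus a prior of 1, at a mean CPM of at least 1. Cocaine was tested against saline with edgeR 4.0.16 (R 4.3.3) on 8 IP libraries (quasi-likelihood, two-sided, TMM, filterByExpr, treatment as the only term, Benjamini-Hochberg over all genes; common biological coefficient of variation 0.199). SEs come from the fold change and its F statistic, and intervals from the fit's degrees of freedom. DESeq2 1.42.0 and limma 3.58.1 were alternatives, as were other priors, filters, scalings, lane fits, the replicate block and leaving out each library. Lengths and positions are from GENCODE M21, which matched 71.0% of symbols and all 10 members.

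On simulated counts (13804 genes), 25.4%, 71.6% and 100% of genes changed 1.5-, 2- and 3-fold were recovered for cocaine against saline, with 5 unchanged genes called. For the lanes (13714 genes) the shares were 8.96%, 58.2% and 100%, with 6 called. These draws gave every gene the common biological coefficient of variation (0.199, and 0.185 for the lanes) and treated libraries as independent. In the data the members' own values ran from 0.127 (Rgs7) to 0.310 (Rgs12), and same-numbered libraries correlated. The shares therefore do not carry over to single members.

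Saline and cocaine IP libraries share the numbers 1, 2 and 4. Deviations of same-numbered libraries correlated at 0.706, 0.619 and 0.313 over 9616 genes (mean CPM at least 5), and at 0.500, 0.337 and 0.0987 over all 13800. No label says what these numbers mark, and the numbers were taken as pairs from the first set of correlations.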

Additional observations from a re-analysis of the deposited data

Results flagged for a closer look

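Rgs16 stood out in cocaine IP 1, at 6.43 CPM against 2.87 to 3.39 CPM in the other 4 cocaine IP libraries. The gap to the nearest library was 0.85 of the group's range, past Dixon's 95% limit of 0.71. Chance gives such a gap in about 5% of groups, and this was the only one among the 10 genes. Saline IP 1 was also the highest of its group for Rgs16, at 5.57 CPM.

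Rgs16 also lay on opposite sides of the 2 references. Its mean log2 ratio was 0.34 (all 3 saline IP libraries above the input) and -1.02 (all 5 cocaine IP libraries below the unbound RNA). This difference was not tested, and treatment and kind of reference cannot be told apart in it. The input held 69 reads and the unbound library 197, and 236 exon bases of Rgs16 are shared with an antisense model.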

How the results depend on the processing

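The number of RGS genes called by IP ratio depended on the limit and the scaling. Against input it was 1 (Rgs2), 6 at a 1.5-fold limit (Rgs2, Rgs4, Rgs7bp, Rgs8 and Rgs10 higher, Rgs9 lower, with 11.6% of genes higher and 16.9% lower), and 0 with a prior of 5 CPM, library size alone, DESeq2 size factors, or TMM on genes of mean CPM 1 or more, a setting chosen after seeing the data. Against unbound RNA it was 2 (Rgs2 and Rgs14), 4 at 1.5-fold (Rgs2, Rgs10 and Rgs14 higher, Rgs9 lower, with 13.8% and 14.8% of genes), and 1 (Rgs14) with library size alone or TMM on filtered genes. With each library left out in turn the counts were 1 to 1 against input and 2 to 3 against unbound RNA, where Rgs16 joined as lower without cocaine IP 1. Of all genes, 211 were higher against input, 70 with library size alone and 325 to 377 with a saline IP library left out; 478 were higher against unbound RNA and 247 with library size alone.

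For cocaine against saline, 0 members were called under all 19 alternatives, with adjusted p of 0.902 or more. Some fitted values changed sign, that of Rgs16 (-0.23) included, and the cause was not tested. They were, in log2 units, -0.037 for Rgs10 and -0.039 for Rgs12 with limma-voom. In lane 6 alone they were -0.91 (Rgs12), 0.42 (Rgs16), 0.038 (Rgs4), 0.034 (Rgs7) and 0.23 (Rgs7bp), and with lane as a covariate -0.91, 0.43, 0.046, 0.042 and 0.24. Both sets of estimates rest on the same lane 6 libraries, with a single saline library, so they are not separate checks. Without lane 4 the values that changed sign were -0.34 (Rgs12), 0.077 (Rgs16), 0.041 (Rgs7), 0.12 (Rgs7bp) and -0.064 (Rgs8). With the replicate block on the paired numbers they were -0.10 (Rgs12), 0.0020 (Rgs7), 0.052 (Rgs7bp) and -0.014 (Rgs8), and in the same 6 libraries without the block -0.18, 0.0019, 0.049 and -0.020. The block called 0 RGS genes and 0 genes in all and changed no call; 903 genes had an unadjusted p under 0.05 with it and 141 without it.

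With each library left out in turn, the values that changed sign ran from -0.038 to 0.18 (Rgs10), -0.31 to 0.43 (Rgs12), -0.22 to 0.090 (Rgs14), -0.086 to 0.070 (Rgs4), -0.12 to 0.060 (Rgs7bp) and -0.021 to 0.14 (Rgs8). Rgs16 ran from -0.52 (without cocaine IP 1) to -0.05 (without saline IP 1) and Rgs2 from -0.26 (without saline IP 1) to -0.04 (without saline IP 2). For lane 4 against lane 6 they ran from -0.33 to 0.064 (Rgs10), -1.02 to 0.083 (Rgs16) and -0.060 to 0.17 (Rgs9), Rgs12 from 0.21 to 1.04, and the count called was 0 to 1. Against input Rgs12 ran from -0.58 to 0.15. Depth limits Rgs16 most, with 69 input reads and 197 reads of unbound RNA, and the single reference libraries limit every IP ratio.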
